A study of Rattus norvegicus with 6 samples.

Results

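The 5 genes described here mark the later part of the nephron, the tubule of the kidney. They are Klk1 (tissue kallikrein), Egf (epidermal growth factor), Fxyd2 (a subunit of the sodium pump), Cldn19 (a tight junction claudin) and Aqp4 (a water channel). The set was chosen by measured values: the levels of Klk1 and Egf were low in the tolerated grafts of this series, and other markers were set beside them. The difference of these genes between the groups is therefore a description, with no test. All 5 were found in the platform's probe annotation, on 6 probes, among 5990 genes that the annotation names by 1 symbol each.

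The samples were 6 rat kidney transplants taken on day 100, with 1 array each. The 3 tolerated grafts were LEW.1W kidneys (MHC haplotype RT1u) in LEW.1A recipients (RT1a) given antibodies against donor class II molecules, and the 3 syngeneic grafts were LEW.1A kidneys in LEW.1A recipients. The transplanted LEW.1W kidneys had an age of 8 to 12 weeks. Recipients of allogeneic grafts lost both native kidneys on day 7, and the labels do not say whether syngeneic recipients kept theirs. Donor haplotype, mismatch and antibody changed together from one group to the other and cannot be told apart. RNA came from sections of whole graft, in which fewer cells of a type and less RNA per cell cannot be told apart. The labels do not say that the 3 samples of a group were separate animals, so errors and p-values cover the spread between these samples.

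In the kidney, the thick ascending limb takes up salt and drives calcium and magnesium between its cells through a pore of claudin-16 and claudin-19. The distal convoluted tubule then takes up magnesium through the channel TRPM6, whose activity epidermal growth factor stimulates, and uses the sodium pump with its gamma subunit, the product of Fxyd2, which other segments of the tubule make as well. The connecting tubule secretes tissue kallikrein, a serine protease that frees kinins from kininogen. Principal cells of the collecting duct take in water through apical aquaporin-2 and pass it on through aquaporin-3 and aquaporin-4. In the rat, Klk1 belongs to a cluster of closely related kallikrein genes on chromosome 1, and the names Klk1c2, Klk1c9, Klk1 and Klk1b3 follow each other in that order in the RefSeq annotation of assembly GRCr8, with 9 protein-coding kallikrein genes from the first to the last of them.

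The promoter windows of Klk1, Egf and 2 sister genes of Klk1 are shown because the kallikrein genes resemble each other in sequence and moved together in the arrays. Each window runs from 250 bases before to 50 bases after the RefSeq start in GRCr8 and is written 5′ to 3′ on the gene's strand. The capitals mark the longest run shared by the 3 kallikrein windows, and in Egf the run TTTAAA. The windows are Klk1 at chr1:103778902-103779201 (plus strand), Klk1b3 at chr1:103845397-103845696 (plus strand), Klk1c2 at chr1:103632951-103633250 (minus strand) and Egf at chr2:220976248-220976547 (minus strand).
Klk1 promoter: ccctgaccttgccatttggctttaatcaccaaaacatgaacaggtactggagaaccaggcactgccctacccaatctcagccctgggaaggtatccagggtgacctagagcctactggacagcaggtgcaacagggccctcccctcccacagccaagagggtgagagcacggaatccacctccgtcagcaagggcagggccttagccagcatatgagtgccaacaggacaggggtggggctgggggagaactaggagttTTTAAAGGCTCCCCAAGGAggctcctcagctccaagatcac
Klk1b3 promoter: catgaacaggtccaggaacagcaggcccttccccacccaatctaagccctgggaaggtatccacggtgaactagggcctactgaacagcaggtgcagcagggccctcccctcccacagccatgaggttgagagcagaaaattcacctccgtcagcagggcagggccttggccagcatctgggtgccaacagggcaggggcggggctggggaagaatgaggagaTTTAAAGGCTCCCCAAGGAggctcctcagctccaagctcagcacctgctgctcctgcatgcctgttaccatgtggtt
Klk1c2 promoter: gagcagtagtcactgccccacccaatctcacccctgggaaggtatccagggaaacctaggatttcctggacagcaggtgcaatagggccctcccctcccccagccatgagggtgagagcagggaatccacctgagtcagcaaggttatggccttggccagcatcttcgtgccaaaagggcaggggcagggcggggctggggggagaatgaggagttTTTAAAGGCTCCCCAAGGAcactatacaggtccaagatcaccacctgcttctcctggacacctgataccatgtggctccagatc
Egf promoter: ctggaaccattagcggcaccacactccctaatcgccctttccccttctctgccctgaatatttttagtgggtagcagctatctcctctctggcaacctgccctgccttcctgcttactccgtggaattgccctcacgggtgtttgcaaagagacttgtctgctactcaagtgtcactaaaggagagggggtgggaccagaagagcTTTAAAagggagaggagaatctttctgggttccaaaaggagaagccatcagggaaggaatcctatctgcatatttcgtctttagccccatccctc

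The Klk1 window was identical to that of Klk1b3 at 88.3% of 264 aligned bases and to that of Klk1c2 at 85.3% of 251. The 19 bases TTTAAAGGCTCCCCAAGGA occurred in 8 of 33469 promoter windows of the table, searched on both strands, and all 8 belonged to kallikrein genes of this family. The run TTTAAA, which reads the same on both strands, was searched after the windows had been read. It stood in 13.6% of all windows, among them those of Klk1, Klk1b3, Klk1c2 and Egf, and it was not in the windows of Cldn19 or Aqp4. It began 27 bases before the annotated start in Klk1b3, 34 before it in Klk1c2, 45 before it in Egf and 9 after it in Klk1. The run TATAAA, found in 14.2% of windows on either strand, was in none of these. Fxyd2 and Klk1c9 had no entry in the table.

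Levels are log2 of the probe intensity after quantile normalization of the 6 arrays, so that 1 unit is a 2-fold change. The median deposited intensity per array was 745 to 991 in tolerated and 421 to 707 in syngeneic grafts, and the number of arrays limits the precision. Across probes, the levels of 2 arrays of a group had a Pearson correlation of 0.948 to 0.967, and those of arrays of different groups 0.878 to 0.945. Syngeneic replicate 3 lay nearest to the tolerated arrays on the first principal component, at -32.5 against -107.1 and -104.4 for the other syngeneic arrays. Kidney markers were bright in every array: Umod, the uromodulin gene of the thick ascending limb, was at 20.10 to 20.84 and Slc34a1, the phosphate transporter gene of the proximal tubule, at 17.81 to 20.67.

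Klk1 was lower in every tolerated graft than in any syngeneic one. Its level on probe 22061141 was 12.85, 14.16 and 14.96 in tolerated replicates 1 to 3 and 17.93, 17.16 and 17.42 in syngeneic replicates 1 to 3. The groups lay 2.19 units apart at their nearest values, and the tolerated arrays spread over 2.11 units against 0.77 in the syngeneic ones. Group means were 13.99 ± 1.07 and 17.50 ± 0.39 (SD, n = 3 each), a log2 difference of -3.51 ± 0.56 (SE of the limma fit), or an 11.4-fold lower level. The deposited intensities before normalization parted the same way, with 8513, 16445 and 45185 in tolerated and 211788, 143303 and 205744 in syngeneic grafts. Without syngeneic replicate 3 the log2 difference was -3.55.

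Egf was the other gene that chose this set, and its groups did not overlap either. Its level on probe 21546114 was 14.99, 15.53 and 16.80 in tolerated and 19.32, 18.84 and 19.13 in syngeneic replicates 1 to 3. As for Klk1, tolerated replicate 1 was the lowest of the arrays and tolerated replicate 3 the highest of its group. Means of 15.77 ± 0.93 and 19.09 ± 0.24 (SD, n = 3 each) gave a log2 difference of -3.32 ± 0.48 (SE), or a 9.98-fold lower level. Deposited intensities were 35757, 40677 and 150751 in tolerated and 498352, 437523 and 629223 in syngeneic grafts, again without overlap although tolerated arrays had the higher medians. The difference was -3.32 also without syngeneic replicate 3.

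**Figure D1:**
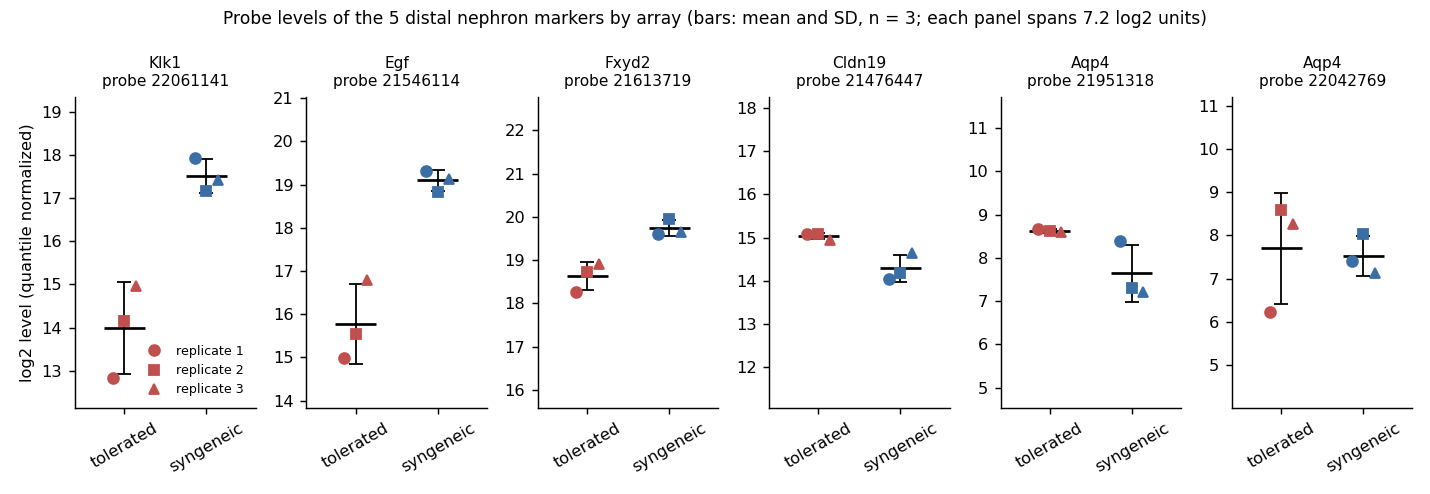
Log2 level of each probe of the 5 genes (y axis, quantile normalized, each panel with the same span) in the 3 tolerated and 3 syngeneic grafts (x axis); points are arrays, horizontal bars are group means and error bars are SD, n = 3. Klk1, Egf and Fxyd2 lie lower in all tolerated arrays, Cldn19 and the first Aqp4 probe lie higher, and the second Aqp4 probe overlaps.

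All 5 genes, by their brightest probe, had groups that did not overlap, with 3 genes lower and 2 higher in tolerated grafts. Among all 20142 probes tested 47.3% did not overlap, 24.1% with all tolerated values lower and 23.1% with all of them higher. Nothing is read from the count over the 5 genes, since this contrast chose them.

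Other kallikrein genes fell in the tolerated grafts as well. Klk1c9 was at 10.05, 11.13 and 11.92 in tolerated and 15.54, 14.65 and 14.95 in syngeneic replicates 1 to 3, a log2 difference of -4.01 ± 0.51 (SE; limma, Benjamini-Hochberg adjusted p = 0.00718 over all tested probes). Klk1b3 stood at 13.22, 13.71 and 14.93 against 18.24, 17.48 and 17.74, a difference of -3.87 ± 0.48 (limma, adjusted p = 0.0066). Klk1c2, the gene of tonin, a protease that can form angiotensin II, was at 8.91, 9.80 and 10.68 against 13.62, 12.62 and 13.15, a difference of -3.33 ± 0.50 (limma, adjusted p = 0.0107). In all 4 kallikrein genes tolerated replicate 1 was the lowest array and syngeneic replicate 1 the highest. Each of the 3 genes tested stayed under the threshold when any 1 array was dropped (limma, adjusted p up to 0.0421). The probes' sequences were not in hand, so binding of sister transcripts to 1 probe and separate falls of these transcripts cannot be told apart, and the 3 genes are not independent support for Klk1.

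**Figure D2:**
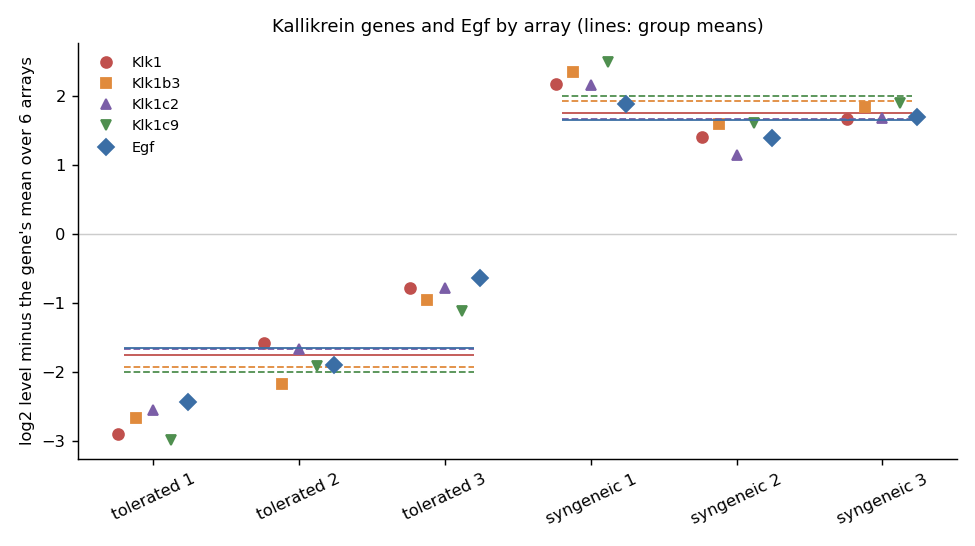
Log2 level minus the gene's mean over the 6 arrays (y axis) of Klk1, Klk1b3, Klk1c2, Klk1c9 and Egf in each array (x axis); points are arrays and lines are group means. The 5 genes keep close together in every array, lowest in tolerated replicate 1 and highest in syngeneic replicate 1.

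In the wider list of kallikrein and kinin genes, 7 of 10 tested genes other than Klk1 fell and none rose, with a median log2 difference of -1.09. Over all tested probes 25.2% were called, 12.4% higher and 12.8% lower, with a median difference of -0.02. Higher probes were 49.1% of those called, and 37.5% with arrays scaled to equal medians. Among the 4955 named genes tested the shares were 32.7%, 15.5% and 17.2%, with a median of -0.04. Besides the kallikreins, Cpn1, the catalytic subunit gene of the kinin-inactivating carboxypeptidase N, fell by 3.005 ± 0.53 on the log2 scale (limma, adjusted p = 0.015). The remaining 3, named after their values were seen, were the peptidase genes Mme (-1.23) and Ace (-0.95) and the kinin B1 receptor gene Bdkrb1 (-0.74). Called genes numbered 3 without tolerated replicate 1, 4 without tolerated replicate 2 and 5 without tolerated replicate 3. Leaving out syngeneic replicate 1, 2 or 3 gave 4, 3 or 6. The list median was -1.86 without tolerated replicate 2, and Cpn1 lost its call when tolerated replicate 1 or syngeneic replicate 2 was dropped, at an adjusted p of 0.0527 and 0.0535.

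Fxyd2 was lower by a smaller amount. Its level on probe 21613719 was 18.27, 18.71 and 18.91 in tolerated and 19.60, 19.95 and 19.66 in syngeneic replicates 1 to 3. Every tolerated value lay below every syngeneic one, with a gap of 0.69, and tolerated replicate 1 was again the lowest. Means were 18.63 ± 0.33 and 19.74 ± 0.18 (SD, n = 3 each), a log2 difference of -1.11 ± 0.22 (SE), or a 2.15-fold lower level. In the deposited intensities the groups overlapped, since tolerated replicate 3 (664687) was above syngeneic replicate 1 (634401), so that the separation of Fxyd2 rests on the normalization. With arrays scaled to equal medians the difference was -1.53. The probe lay near the top of the scale, whose highest value was 21.25, and saturation could not be judged from the files.

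Of 10 tested sodium pump genes other than Fxyd2, 2 rose and none fell, beside 15.5% higher and 17.2% lower among all named genes tested. Their median was 0.11, or -0.005 without tolerated replicate 2 and -0.008 with arrays scaled to equal medians. Fxyd5, the gene of dysadherin, an FXYD protein that also affects cell adhesion, rose by 2.71 ± 0.44 (SE; limma, adjusted p = 0.0127), from 12.98, 13.42 and 14.67 in syngeneic to 16.34, 16.33 and 16.51 in tolerated grafts. Fxyd1, the gene of phospholemman, known from heart and muscle, rose by 0.97 ± 0.22 (limma, adjusted p = 0.0282). Atp1b1, the beta subunit gene of the pump, had a difference of -0.14 (95% interval -0.51 to 0.23), which did not pass (limma, adjusted p = 0.542). Fxyd5 was lost without syngeneic replicate 2 (adjusted p = 0.0525), and Fxyd1 passed only without syngeneic replicate 3 among the fits with 1 array left out (adjusted p up to 0.0866). The called genes of the list numbered 1 without tolerated replicate 1, 2 or 3 or syngeneic replicate 1, 0 without syngeneic replicate 2 and 3 without syngeneic replicate 3.

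Cldn19 went the other way from Klk1 and Egf. On probe 21476447 its level was 15.09, 15.08 and 14.95 in tolerated and 14.03, 14.19 and 14.64 in syngeneic replicates 1 to 3. The tolerated arrays lay within 0.14 of each other, and syngeneic replicate 3 came closest to them, 0.31 below the lowest. Means were 15.04 ± 0.08 and 14.29 ± 0.32 (SD, n = 3 each), a log2 difference of 0.75 ± 0.20 (SE), or a 1.68-fold higher level. The deposited intensities ran from 30061 to 44831 in tolerated and from 11411 to 29797 in syngeneic grafts. Tolerated arrays also had the higher median intensities, so the order of these unnormalized values cannot be told apart from array brightness. The difference was 0.92 without syngeneic replicate 3 and 0.47 with arrays scaled to equal medians.

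Its partner Cldn16, named here for that role after its value was seen, had a log2 difference of 0.16 ± 0.23 (SE) and did not pass (limma, adjusted p = 0.645). All named genes tested had 15.5% called higher and 17.2% lower. Among 9 other tested claudin and tight junction genes, 2 rose and none fell, with a median of 0.35. These were Cldn4 (1.75 ± 0.24; limma, adjusted p = 0.00821) and Cldn3 (1.15 ± 0.24; limma, adjusted p = 0.0234), claudins of the collecting duct and of other epithelia. Cldn4 stood at 14.80, 14.74 and 14.57 in tolerated and 12.83, 12.64 and 13.40 in syngeneic grafts, and passed with any 1 array left out. Cldn3 passed only without syngeneic replicate 3 among those fits, and had adjusted p = 0.0527 with arrays scaled to equal medians. The list had 1 called gene without any of the other 5 arrays and 3 without syngeneic replicate 3.

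Aqp4 had a pair of probes, and they did not show the same pattern. On probe 21951318 its level was 8.66, 8.62 and 8.59 in tolerated and 8.40, 7.30 and 7.22 in syngeneic replicates 1 to 3. The tolerated arrays lay close together, and syngeneic replicate 1 was only 0.19 below them. The means of 8.62 ± 0.04 and 7.64 ± 0.66 (SD, n = 3 each) gave a log2 difference of 0.98 ± 0.34 (SE), or a 1.98-fold higher level. The syngeneic mean lay under the level of 7.76 below which probes were not tested, so the probe passed that filter only through the group in which it was higher. Probe 22042769 was at 6.23, 8.60 and 8.27 in tolerated and 7.42, 8.02 and 7.13 in syngeneic grafts. These values overlapped, with means of 7.70 ± 1.28 and 7.52 ± 0.46 (SD, n = 3 each), and the probe was under the filter. The files hold no background or detection measure, so neither probe shows whether Aqp4 was above background.

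Of 9 other aquaporin genes tested 4 fell and none rose, with a median of -1.004, beside 17.2% lower and 15.5% higher among all named genes tested. Aqp11 (-3.05 ± 0.32), Aqp7 (-3.02 ± 0.39) and Aqp1 (-2.02 ± 0.23), all known from the proximal tubule, fell (limma, adjusted p = 0.00504, 0.00724 and 0.00588) and passed with any 1 array left out. Aqp1 is also made in the thin descending limb. Aqp9, known from liver, fell by 1.08 ± 0.29 (limma, adjusted p = 0.0436), and among the fits with 1 array left out it passed only in that without syngeneic replicate 3 (adjusted p up to 0.128). Aqp2 and Aqp3, the channels of principal cells beside Aqp4, had differences of 0.30 ± 0.31 and -0.65 ± 0.31 (SE) and did not pass (limma, adjusted p = 0.517 and 0.184). That of Aqp2 turned to -0.071 with arrays scaled to equal medians.

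Beside Egf and Cldn19, none of 8 tested thick ascending limb genes differed by limma at an adjusted p under 0.05, and 2 had an unadjusted p under 0.05. Their median was -0.31, or -0.63 with arrays scaled to equal medians, and their range -1.24 to 0.27. Umod had -0.40 ± 0.19 (SE), with a 95% interval of -0.88 to 0.08, and Slc12a1, the salt cotransporter gene of this segment, had 0.27 ± 0.27, with an interval of -0.39 to 0.93 (limma, adjusted p = 0.188 and 0.496). The Umod probe lay near the top of the scale, like that of Fxyd2, and its saturation could not be judged. Kcnj1, the ROMK potassium channel gene, had -0.22 ± 0.28 (limma, adjusted p = 0.604). The direction of Kcnj1 turned without tolerated replicate 1 (0.061) and that of Slc12a1 with arrays scaled to equal medians (-0.11). The genes nearest to the threshold were Bsnd, the barttin subunit of chloride channels (-0.81 ± 0.24; limma, adjusted p = 0.0533), and Ppp1r1a, a phosphatase inhibitor (-1.24 ± 0.49; adjusted p = 0.12). Ppp1r1a passed with arrays scaled to equal medians (-1.60, adjusted p = 0.0467), and Bsnd with the filter at the median level (adjusted p = 0.0263) or with an intensity trend (0.0274).

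Of 13 tested genes of the distal convoluted and connecting tubule other than Klk1, Egf and Fxyd2, 3 fell and 1 rose, with a median of -0.40. The shares over all named genes tested were 17.2% lower and 15.5% higher, so the count is not read as a result about the segment. S100g, the gene of the cytosolic calcium binder calbindin-D9k, fell by 3.76 ± 0.58 (SE; limma, adjusted p = 0.0115), with 10.94, 8.91 and 9.76 in tolerated and 14.25, 13.62 and 13.00 in syngeneic replicates 1 to 3. Tolerated replicate 1 was its highest tolerated array, unlike for Klk1 and Egf. Kcnj16, which encodes a basolateral potassium channel subunit, fell by 1.69 ± 0.25 (limma, adjusted p = 0.0105), and its other tested probe fell as well (-2.17 ± 0.31, adjusted p = 0.00906). Cnnm2, which encodes a basolateral protein needed for magnesium balance, fell by 1.43 ± 0.26 (limma, adjusted p = 0.016). The calcium channel gene Trpv6 rose by 4.95 ± 1.03 (limma, adjusted p = 0.0224), from 9.05, 7.58 and 11.71 in syngeneic grafts to 14.90, 14.34 and 13.95 in tolerated ones.

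S100g and Kcnj16 passed with any 1 array left out. Cnnm2 missed the threshold when syngeneic replicate 1 or 2 was dropped, at 0.0556 and 0.0514. Of those fits Trpv6 passed only the one without syngeneic replicate 3, with a change of 6.05, and its adjusted p reached 0.0755. Its change was 3.998 without syngeneic replicate 2. The list had 2 called genes without syngeneic replicate 1 or 2. Slc12a3, the thiazide-sensitive cotransporter gene that defines the distal convoluted tubule, had -0.50 ± 0.23 (95% interval -1.06 to 0.07; limma, adjusted p = 0.171), and Calb1, the gene of calbindin-D28k, had -0.37 ± 0.31 (adjusted p = 0.426). Trpm6 had no named probe.

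Among 12 principal cell genes other than Aqp4, 1 fell and none rose, with a median of -0.22. It was Kcne1 (-2.39 ± 0.55; limma, adjusted p = 0.0292), a potassium channel subunit gene also known from the proximal tubule, which missed the threshold when replicate 1 or 2 of either group was dropped, with an adjusted p of at most 0.0952. Scnn1a, a sodium channel subunit gene, had -0.30 ± 0.32 (adjusted p = 0.536). Over all named genes tested, 17.2% were called lower and 15.5% higher. Of 9 intercalated cell genes 3 fell and none rose, with a median of -0.64. They were Slc26a4, the gene of the exchanger pendrin (-1.64 ± 0.34; limma, adjusted p = 0.0217), the ammonia transporter gene Rhbg (-1.39 ± 0.23; adjusted p = 0.0133) and the bicarbonate transporter gene Slc4a9 (-1.17 ± 0.29; adjusted p = 0.0336). The intercalated count was 1 without tolerated replicate 1, 2 or 3, 2 without syngeneic replicate 1, 0 without syngeneic replicate 2 and 3 without syngeneic replicate 3. Slc4a9 missed the threshold in each of the 6 fits, with an adjusted p of at most 0.0984. Slc26a4 missed it when any tolerated array or syngeneic replicate 2 was dropped (at most 0.0669), and Rhbg when syngeneic replicate 2 was (0.0528).

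**Figure D3:**
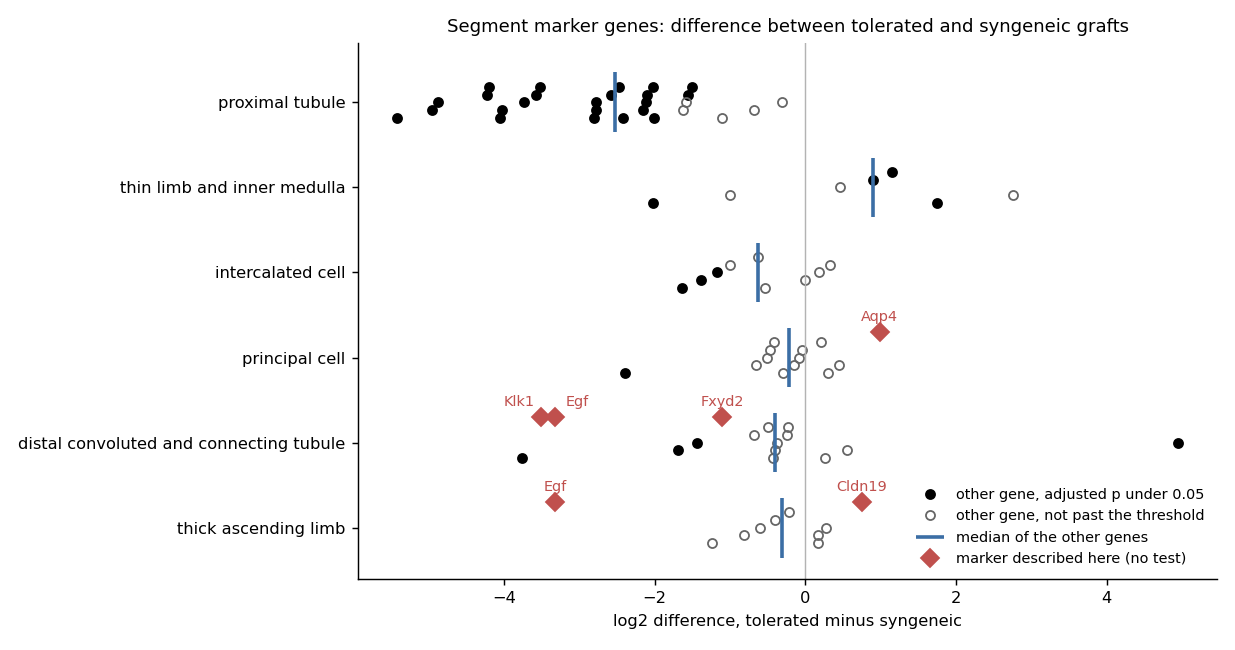
Log2 difference between tolerated and syngeneic grafts (x axis) of each tested gene in 6 nephron segment lists (y axis); filled points passed an adjusted p under 0.05 in limma, open points did not, vertical bars are list medians without the 5 genes, and diamonds are the 5 genes described here, without a test. The list medians run from -2.53 for the proximal tubule to 0.90 for the thin limb and inner medulla; the positions of the 5 genes follow from how they were chosen.

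Proximal tubule genes differed most among the segment lists. Of 28 tested 23 fell and none rose, with a median of -2.53, beside 17.2% lower and 15.5% higher among all named genes tested. Pck1 of glucose synthesis (-5.42 ± 0.34), the transporter gene Slc7a13 (-4.95 ± 0.57), Fbp1 of glucose synthesis (-4.87 ± 0.36) and the organic anion transporter gene Slc22a6 (-4.22 ± 0.34) had the largest changes (limma, adjusted p up to 0.00597), and all passed with any 1 array left out. Without tolerated replicate 3 the change of Slc7a13 was -5.58. Slc34a1 (-2.58 ± 0.22) and the endocytosis receptor gene Lrp2 (-2.78 ± 0.31) fell as well (limma, adjusted p = 0.00406 and 0.00561). The differences of Klk1 and Egf thus lay within the range of this list, -5.42 to -0.31. In the thin limb and inner medulla list, 3 of 7 genes rose (Cldn3, Cldn4 and Akr1b1, the aldose reductase gene, with 0.90 ± 0.17 and adjusted p = 0.0174) and Aqp1 fell, with a median of 0.90. That count of 4 became 2 when any tolerated array or syngeneic replicate 1 was dropped, and Akr1b1 missed the threshold in those fits (adjusted p up to 0.0663).

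Genes that bear on magnesium and on the growth factor itself were set beside Egf, Fxyd2 and Cldn19. The share of all named genes tested that was called lower was 17.2%, and that called higher 15.5%. Of 9 other magnesium handling genes tested, Cnnm2 and Egfr fell and none rose, with a median of -0.50. Egfr, the receptor of epidermal growth factor, was at 11.03, 11.10 and 10.99 in tolerated and 12.18, 11.81 and 11.77 in syngeneic grafts, a difference of -0.88 ± 0.17 (SE; limma, adjusted p = 0.0194). Among 8 genes of the receptor family and its ligands 3 fell and none rose, with a median of -0.64: Egfr, the receptor gene Erbb3 (-1.96 ± 0.40; limma, adjusted p = 0.021) and the ligand gene Nrg1 (-1.32 ± 0.32; adjusted p = 0.0343). These calls were lost in most fits with 1 array left out. In every such fit but that without syngeneic replicate 3, calls over all probes also fell, from 5075 to between 1610 and 2152. Without any 1 of the tolerated arrays the magnesium list had 1 called gene, and without syngeneic replicate 1 or 2 it had 0. The receptor list had 1 without tolerated replicate 1, 0 without tolerated replicate 2 or 3 or syngeneic replicate 1 or 2, and 3 without syngeneic replicate 3. The adjusted p rose to 0.0712 for Egfr, 0.0715 for Erbb3 and 0.108 for Nrg1.

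Markers of other cell types and of injury moved with the groups in the same arrays. For comparison, 15.5% of all named genes tested were called higher and 17.2% lower. Leukocyte genes rose in 10 of 14 tested (median 2.96), with a mean level, each gene taken relative to its mean over the 6 arrays, of 1.35 to 1.59 in tolerated and -2.39 to -0.21 in syngeneic grafts. Tubular injury genes rose in 11 of 13 and fell in 1 (median 2.62), with means of 0.90 to 1.39 and -1.58 to -0.28. Fibroblast and smooth muscle genes rose in 6 of 6 (median 1.83). Among 18 genes known from liver 7 fell and 1 rose (median -2.36), and syngeneic replicate 1, where Klk1 and Egf were highest, had a mean of 2.38 against 0.48 and 0.70 in the other syngeneic arrays. Their part in the levels of the 5 genes was not tested. Without syngeneic replicate 1 the difference was -3.24 for Klk1 and -3.20 for Egf, and the median of the liver list was -1.41. That median was -3.06 without syngeneic replicate 2.

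Podocyte genes had 1 lower of 7 (median -0.16). For endothelium limma called 0 of 7 (median -0.23), and 2 had an unadjusted p under 0.05. The podocyte call was lost when any array but syngeneic replicate 3 was dropped, and without that array 1 endothelial gene was called. Called leukocyte genes numbered 3, 4 and 3 with tolerated replicates 1, 2 and 3 dropped in turn, and 5, 6 and 12 with the syngeneic ones. The same fits gave 4, 4, 8, 6, 3 and 12 injury genes and 4, 3, 2, 4, 4 and 6 fibroblast and smooth muscle genes. The median of the leukocyte genes was 3.605 without syngeneic replicate 3.

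The lists of the later segments also show where single arrays stood. The mean level of the thick ascending limb genes was -0.63 in tolerated replicate 1, against -0.0015 and 0.13 in the other tolerated arrays and 0.10 to 0.25 in the syngeneic ones. Principal cell genes had -0.61 in the same array, against -0.13 and 0.23 and against 0.07 to 0.24. Intercalated cell genes had -0.48 there, against -0.30 and -0.20 and against 0.12 to 0.46. The genes of the distal convoluted and connecting tubule, the segment of Klk1, did not follow this order in their mean. That mean was -0.14 in tolerated replicate 1 and -0.23 and -0.09 in the other tolerated arrays. In syngeneic replicates 1 to 3 it was 0.33, -0.15 and 0.27. It covers 13 genes, among them Trpv6 and S100g with the extreme differences of the list (4.95 and -3.76), and was not taken without them. Klk1, Egf and Fxyd2 were lowest in tolerated replicate 1. Without it the log2 differences were -2.96 for Klk1, -2.92 for Egf and -0.93 for Fxyd2.

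**Figure D4:**
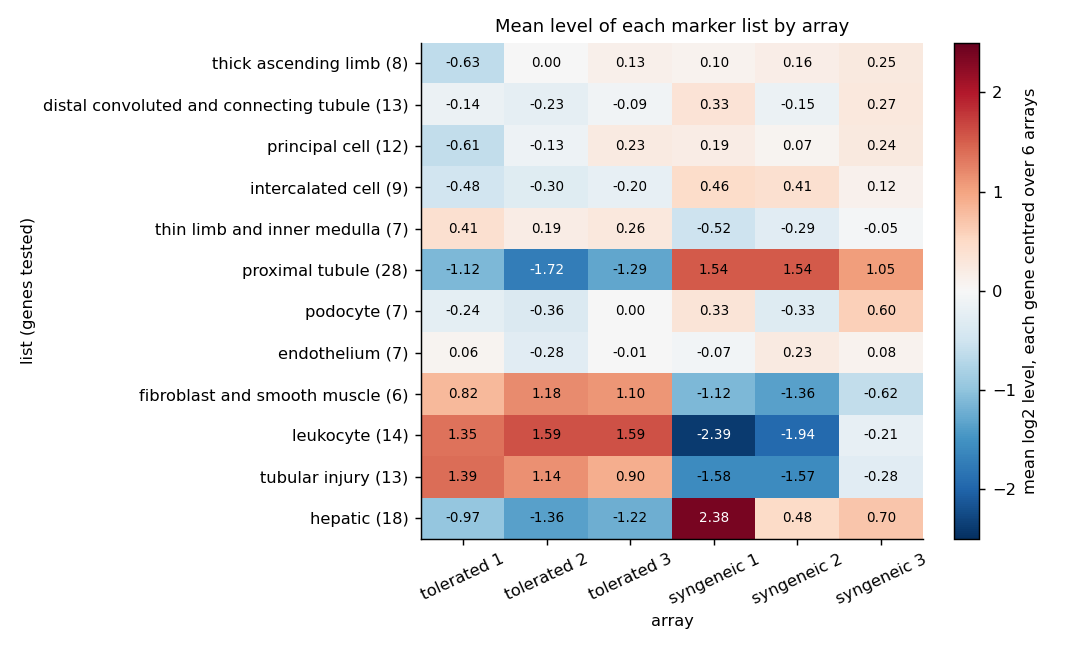
Mean log2 level of each marker list in each array, every gene centred on its mean over the 6 arrays (colour scale and printed values; columns are arrays, rows are lists with the number of genes tested, and the 5 genes described here are left out). Proximal tubule genes are lower in all 3 tolerated arrays (-1.12 to -1.72 against 1.05 to 1.54), while thick ascending limb genes stay within -0.63 to 0.25.

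The genes with the most similar profiles were sought among the 4955 named genes tested, by the root mean square difference of log2 levels over the 6 arrays after each gene had been centred on its own mean. Klk1 lay nearest to Klk1c2 (0.18), Klk1c9 (0.27) and Egf (0.27). Egf lay nearest to Klk1c2 (0.19), Klk1 (0.27) and Haao (0.29), an enzyme gene of tryptophan breakdown. The nearest genes to Fxyd2 were Ift172 (0.10), Letm1 (0.11) and Pdha1 (0.13), which encode a cilium transport protein, a mitochondrial membrane protein and a pyruvate dehydrogenase subunit. Those to Cldn19 were Parp1, Arf6 and Rpl35a (0.07 to 0.08), and those to Aqp4 were Disc1, Rnase4 and Kif2c (0.21 to 0.22). Of these 3 neighbours, 2 or 3 were kept for Klk1 and 1 or 2 for Egf with 1 array left out. Only 0 to 2 were kept for Fxyd2 and 0 or 1 for Cldn19 and Aqp4. The names for these last 3 genes changed with the arrays used, so their nearest genes are not settled. These distances include the difference between the groups, by which Klk1 and Egf were chosen, so the closeness of that pair is a description and supports nothing.

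The differences of the 5 genes kept their direction under every alternative that gave a value. The other filters, the replicate block and the intensity trend cannot change these differences, and gave the main values again. Groups that do not overlap are also unlikely to change order when 1 array is left out. The kept directions are therefore a description and no separate support. Equal medians in all arrays shifted the median difference of all tested probes from -0.02 to -0.15, and the 5 differences were then -3.92 for Klk1, -3.70 for Egf, -1.53 for Fxyd2, 0.47 for Cldn19 and 0.75 for Aqp4. The authors' deposited log2 values gave -3.58, -3.36, -1.09, 0.75 and 0.99. With 1 array left out, Klk1 ranged from -4.03 to -2.96, Egf from -3.85 to -2.92, Fxyd2 from -1.25 to -0.93, Cldn19 from 0.61 to 0.92 and Aqp4 from 0.78 to 1.40.

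**Figure D5:**
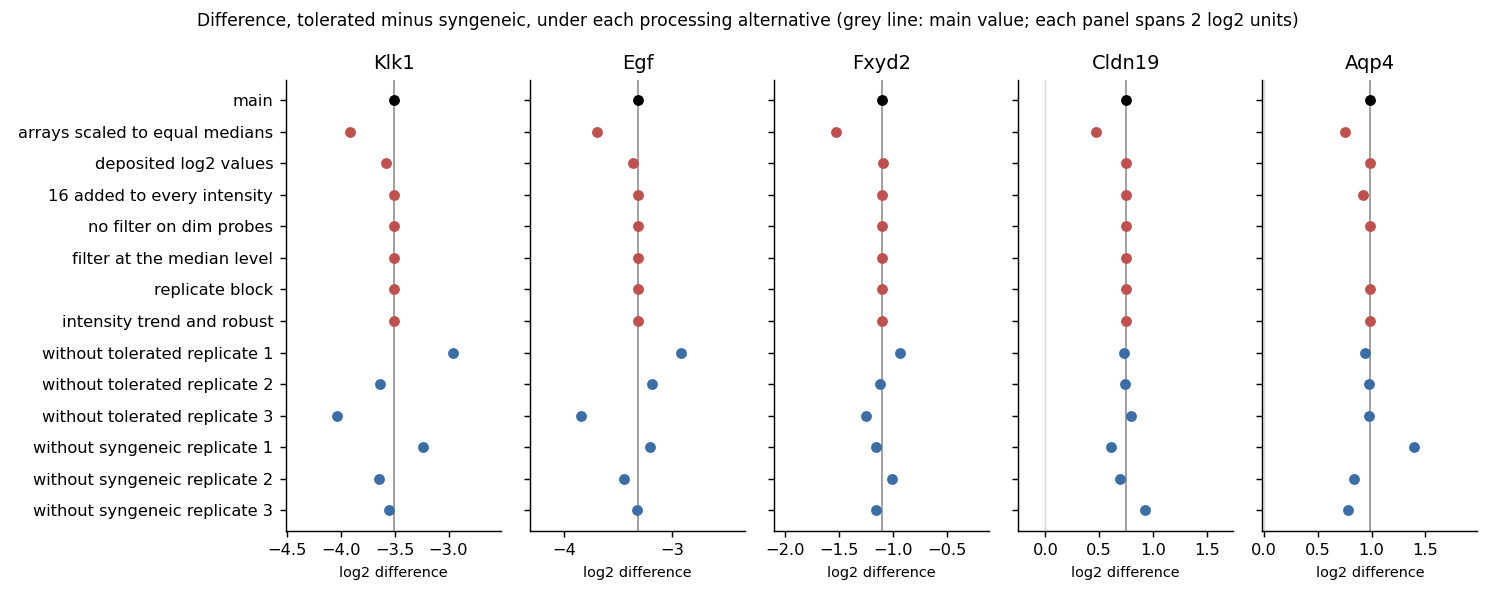
Log2 difference between tolerated and syngeneic grafts of each of the 5 genes (x axis, each panel with the same span) under the main processing and each alternative (y axis); the grey line is the main value, and Aqp4 has no value where the stricter filter removed its probe. The widest moves are those without tolerated replicate 1 or 3 for Klk1 and Egf, with equal medians for Fxyd2 and Cldn19, and without syngeneic replicate 1 for Aqp4.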

How the data were processed

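RNA of 6 grafts was measured on Applied Biosystems rat genome survey arrays, from 0.5 µg of total RNA each, with chemiluminescent detection, per the labels' protocols. The authors deposited raw probe intensity values, whose column medians differed between arrays, and log2 values with equal distributions in all columns. Of scanner software, background correction, flags and the normalization used, the sources used here say nothing.

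Intensities were taken to log2 and quantile normalized. Of 26857 probes, 6715 with a mean level at or under the lower quartile (7.76) were removed and 20142 tested. The annotation named 6104 probes by 1 symbol, 70 by several and 20683 by none, and 6081 symbols were updated through Entrez identifiers to RefSeq GRCr8. The brightest probe stood for a gene. Groups, taken from the titles, entered a limma fit (version 3.58.1, R 4.3.3; two-sided, no covariate), with p-values adjusted by Benjamini-Hochberg across the 20142 probes and called at 0.05. The fit was tested on simulated data. Promoter sequences are from RefSeq (GRCr8) and were aligned with Biopython 1.88.

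The 5 genes and the 18 lists were chosen with earlier results of these data known. The 5 genes were left out of the lists, and lists share some genes. The text names all probes of the 5 genes, 12 segment genes fixed by name that have a tested probe, up to 4 called genes per segment or pathway list (without calls, the 2 with the smallest p), and the 3 nearest profiles. Beyond this rule, Mme, Ace, Bdkrb1 and Cldn16 were named after their values were seen. Of the lists of other cell types, injury and liver the text names no gene and gives counts, medians and mean levels, since no result on the 5 genes turns on single genes there. Alternatives were median scaling, the deposited log2 values, 16 added to each intensity, other filters, a replicate block, an intensity trend with robust settings, and each array left out.

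Titles give both groups the replicate numbers 1 to 3. Deviations of same-numbered arrays from their group means correlated at -0.002, 0.01 and 0.05, and those of differently numbered arrays at -0.038 to 0.031. With 3 arrays per group these values cannot show whether the numbers pair the samples. The labels name no pairing, and the main fit was left unpaired.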

Additional observations from a re-analysis of the deposited data

How the results depend on the processing

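Directions of the 5 genes held under all alternatives, but the stricter filter removed Aqp4. The filters, the replicate block and the intensity trend leave a gene's difference unchanged, so they are no check of direction. Moves beyond 1 SD came with arrays scaled to equal medians, to -1.53 for Fxyd2 and 0.47 for Cldn19. In that setting Aqp2 (-0.071) and Slc12a1 (-0.11) turned, and called genes became 1 for thick ascending limb, 2 for podocyte and 1 for claudins. Kcnj1 ranged from -0.42 to 0.061 with 1 array left out. Without a filter podocyte genes had 0 called. With the filter at the median level and with an intensity trend, thick ascending limb and endothelium genes had 1 each. At that filter the medians were -3.005 for kallikrein and kinin and -3.14 for liver genes, with fewer genes tested.

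The numbers in the titles were not taken to pair the arrays, and 3 arrays per group cannot show whether they do. With the replicate block, which costs residual degrees of freedom, 1886 probes were called in place of 5075. Called list genes were then 0 for principal cell, intercalated cell and podocyte, 1 for magnesium handling, sodium pump, claudins and the EGF receptor list, 2 for tubular injury and for thin limb and inner medulla, 3 for fibroblast and smooth muscle, and 6 for leukocyte genes.

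With 1 array left out, which also costs residual degrees of freedom, 1610 to 6046 probes were called. Every such fit but that without syngeneic replicate 3 called at most 2152, against 5075 with all arrays. A call lost in these fits therefore does not by itself point to 1 gene or 1 array. List counts ranged from 2 to 4 for distal convoluted and connecting tubule, 0 to 1 for principal cell, 0 to 3 for intercalated cell, 2 to 5 for thin limb and inner medulla, 0 to 1 for podocyte and endothelium, 2 to 6 for fibroblast and smooth muscle, 3 to 12 for leukocyte and tubular injury, 0 to 2 for magnesium handling, 0 to 3 for sodium pump, 1 to 3 for claudins, 3 to 6 for kallikrein and kinin and 0 to 3 for EGF receptor genes. The cause of these moves was not tested. Proximal tubule counts ranged from 18 to 25, and those of liver genes from 6 to 8 and of aquaporins from 3 to 4. Signal over background was not in hand, which limits the dim Aqp4 probes most.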
